A study of Mus musculus with 24 samples.

Results

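The major histocompatibility complex (MHC) class II genes examined here were the antigen-presenting chains H2-Aa, H2-Ab1 and H2-Eb1, the invariant chain Cd74, the peptide editor genes H2-DMa, H2-DMb1 and H2-DMb2, the editor's inhibitor genes H2-Oa and H2-Ob, and the class II transactivator Ciita. They are 10 of the 20284 named genes on the array, and they were chosen by name, through the transcript that each probe was designed against. All 10 were measured, by 12 of the 55681 probes; H2-Ab1 and H2-Ob have 2 probes each. All 12 probes were well above background on all 24 arrays, so all 10 genes passed the filter on dim probes.

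Levels were measured in bone marrow cells of C57BL/6 mice grown for 9 days in 100 ng/ml human Flt3 ligand, a cytokine that drives marrow cells to become dendritic cells. The mice were wild type (WT), Irf5 KO, Lyn KO or Lyn/Irf5 DKO, which lack IRF5 (a transcription factor of the Toll-like receptor pathway), LYN (a Src-family kinase) or both. Each genotype was left unstimulated or given 150 nM CpG-B, a synthetic DNA that triggers TLR9, for 6 h. Each of the 8 groups has 3 arrays, described as biological triplicates; the cultures or animals behind each are not stated. These are mixed cultures from whole marrow: genes of plasmacytoid and of type 1 and type 2 conventional dendritic cells were all measured, beside genes of B cells, macrophages and neutrophils.

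Class II molecules pair an alpha and a beta chain and present peptides from endocytosed proteins to CD4+ T cells. The invariant chain, CD74, holds newly made pairs and blocks the groove until it is degraded; H2-DM then exchanges its last fragment for other peptides, and H2-DO holds H2-DM back. CIITA binds no DNA of its own. It is recruited to an enhanceosome of RFX, CREB and NF-Y proteins on the X1, X2 and Y boxes that lie upstream of class II genes, and dendritic cells are known to shut Ciita down as they mature.

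The boxes that would bind this complex were looked for in the RefSeq promoter windows (build GRCm38.p6), because they are what members of the family are known to share. A window was given for 7 of the 10 genes, with 2 windows for H2-DMa, so 8 in all. The 250 bases upstream of each start were searched on both strands for the core of the X1 box, GCAAC, the core of the Y box, ATTGG, and the pair with X1 upstream and 15 to 40 bases between. The pair was present in 4 of the 8 windows (50%), against 343 of the 32851 windows of all genes (1.04%). The Y core alone was in 7 of 8 (87.5%, against 33.8% of all windows) and the X1 core alone in 5 of 8 (62.5%, against 29.9%). The 4 stretches are printed 5′ to 3′ on the strand of the gene, with both cores in capitals.
H2-Aa, chr17:34287855-34287916, minus strand, X1 core 81 bases and Y core 48 bases upstream of the start: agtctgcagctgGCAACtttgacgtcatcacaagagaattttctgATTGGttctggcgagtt
H2-Eb1, chr17:34305764-34305824, plus strand, cores 91 and 59 bases upstream: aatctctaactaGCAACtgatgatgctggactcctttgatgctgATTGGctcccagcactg
H2-Oa, chr17:34092291-34092352, plus strand, cores 76 and 43 bases upstream: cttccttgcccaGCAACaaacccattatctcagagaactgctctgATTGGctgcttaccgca
H2-Ob, chr17:34238806-34238864, plus strand, cores 87 and 57 bases upstream: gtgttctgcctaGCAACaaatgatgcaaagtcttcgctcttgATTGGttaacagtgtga
The gap between the cores was 28 bases in H2-Aa and H2-Oa, 27 in H2-Eb1 and 25 in H2-Ob. The windows of H2-DMa, H2-DMb1 and H2-DMb2 held no such spaced pair of these exact letters. A match is a description of the sequence only. Of the members that share the pair, H2-Oa and H2-Ob fell after CpG-B in every genotype. H2-Aa fell in WT, Irf5 KO and Lyn KO and was not called in DKO (-0.13). No change of H2-Eb1 passed the test, but its signal was nearly constant, which limits what can be read from it. H2-DMa (-3.06 in WT), H2-DMb1 (-2.56) and H2-DMb2 (-1.79), whose windows held no spaced pair, also fell in every genotype. A link between the pair and the response was not tested.

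Across the 24 arrays, 41.0% to 53.8% of spots were well above background, no spot was marked saturated, and the 75th percentile of the signal, which was used to scale each array, ran from 268.7 to 503.7. A level below is the log2 of a probe's signal over that percentile, so 1 unit is a doubling; levels are not compared between probes, which differ in efficiency. The Lyn probe was lower in Lyn KO than in WT arrays by -1.82 ± 0.09 unstimulated and -2.46 ± 0.09 with CpG-B (log2 ± SE, adjusted p = 9.24e-10 and 7.82e-12). The Irf5 probe did not check the Irf5 label: it differed by -0.29 ± 0.09 unstimulated (adjusted p = 0.167) and was higher by 0.63 ± 0.09 with CpG-B (adjusted p = 2.74e-05) in Irf5 KO arrays. The place of that probe relative to the deleted part is not stated. All p-values are from limma with Benjamini-Hochberg adjustment over the 20209 features tested.

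Without stimulation, none of the 10 genes differed between genotypes beyond the test's threshold, and the estimated differences ran from -0.19 to 0.13. H2-DMa was 5.85, 6.01 and 5.93 on the WT arrays, 5.99, 5.95 and 6.02 in Irf5 KO, 6.04, 5.98 and 6.01 in Lyn KO, and 5.99, 6.09 and 6.01 in DKO. The ranges of the 4 genotypes overlapped. None of the 10 genes was called in Irf5 KO against WT, where 0.713% of all features were, in Lyn KO against WT (4.58%), in DKO against WT (6.67%), in DKO against Irf5 KO (5.42%) or in DKO against Lyn KO (0.173%). At an unadjusted p under 0.05, 1 gene passed in 1 of these 5 comparisons: H2-Ob, at -0.19 ± 0.06 in DKO against Irf5 KO (adjusted p = 0.0667). The counts stayed at 0 under every alternative setting run. Groups did not overlap for 2 of the 10 genes in Irf5 KO against WT (H2-Ob and Ciita; 17.3% of all features), for 1 in DKO against WT (Ciita; 24.2%) and for 2 in DKO against Irf5 KO (H2-Ob and Cd74; 25.7%). H2-Ob was 4.39, 4.38 and 4.43 in Irf5 KO and 4.31, 4.27 and 4.25 in WT, so the gap between the groups was small. The widest 95% intervals of a difference from WT were those of Ciita, -0.55 to 0.23 in Irf5 KO, -0.52 to 0.26 in Lyn KO and -0.53 to 0.24 in DKO. B cells also carry class II molecules, and the summed level of 14 B cell marker genes differed widely between these groups: in multiples of the array's 75th percentile, it was 95.1 to 145 in WT, 148.5 to 187 in Irf5 KO, 16.4 to 16.9 in Lyn KO and 15.2 to 21.8 in DKO arrays. Of those 14 genes, 11 were lower and 0 higher in Lyn KO than in WT, with Pax5 not above background in Lyn KO and Cd79a and Pax5 not above it in DKO. In these bulk cultures, fewer cells of a type and less RNA per cell cannot be told apart.

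**Figure D1:**
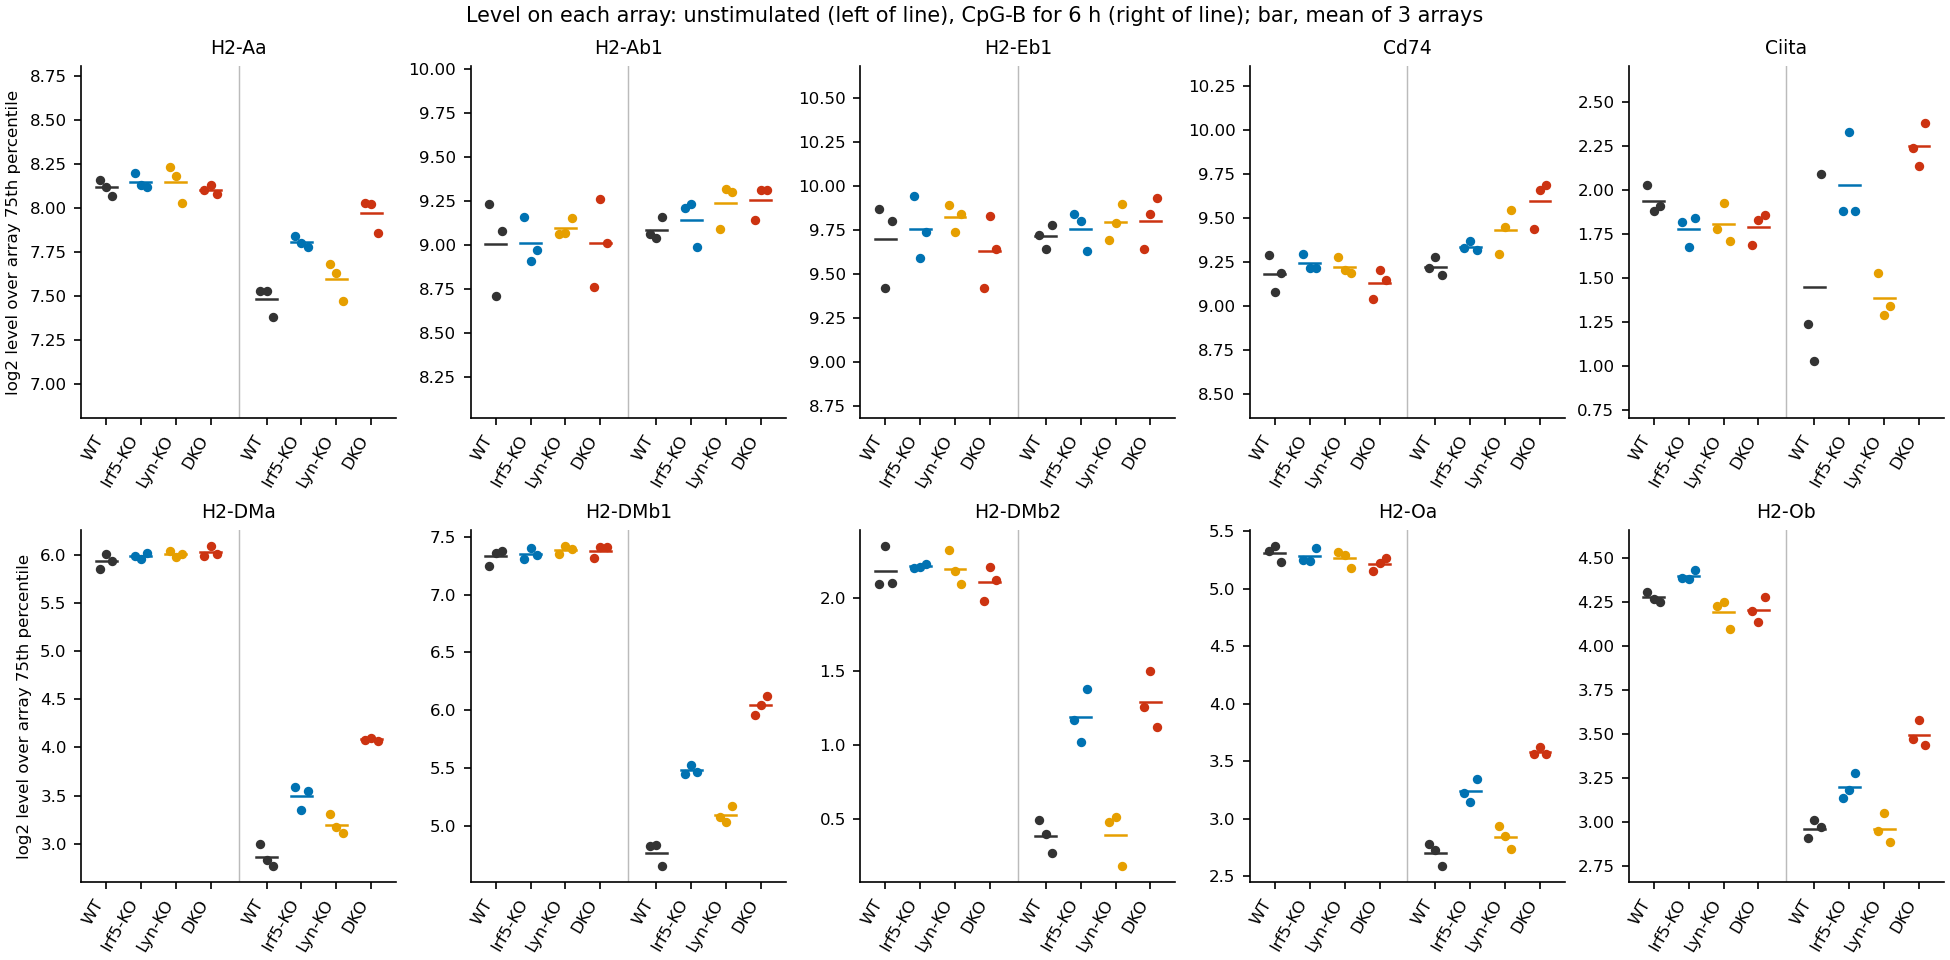
Level of each of the 10 genes on each of the 24 arrays (points; vertical axis, log2 of the signal over the array's 75th percentile; the scale differs between panels), with the mean of 3 arrays as a bar. Unstimulated H2-DMa levels run from 5.85 to 6.09, and after CpG-B the H2-DM and H2-DO genes fall in every genotype, least in DKO.

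CpG-B lowered the genes of the peptide editor in all 4 genotypes. In WT, H2-DMa, the alpha chain of H2-DM, was 5.85, 6.01 and 5.93 unstimulated and 3.00, 2.83 and 2.77 with CpG-B. Every stimulated array lay below every unstimulated one, and the level fell by 3.06 ± 0.07 (log2 ± SE), an 8.36-fold difference (limma, adjusted p = 1.86e-17). H2-DMb1, which encodes a beta chain of H2-DM, went from 7.25, 7.36 and 7.38 to 4.82, 4.83 and 4.65. That is a 5.9-fold difference, -2.56 ± 0.06 (adjusted p = 2.06e-17). H2-DMb2, the second beta chain gene, was lower by -1.79 ± 0.11, 3.47-fold (adjusted p = 4.48e-11); it and H2-DMb1 are close copies, and how far each probe also binds the other's RNA was not tested.

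The inhibitor of that editor fell beside it. H2-Oa, the alpha chain of H2-DO, was 5.33, 5.37 and 5.23 in unstimulated WT and 2.78, 2.73 and 2.59 with CpG-B, a drop of -2.61 ± 0.07 or 6.1-fold (limma, adjusted p = 1.07e-16). H2-Ob, the beta chain, went from 4.31, 4.27 and 4.25 to 2.91, 3.01 and 2.97, which is -1.31 ± 0.06 or 2.49-fold (adjusted p = 2.43e-13). The groups of both genes were apart, as they were for 70.7% of all features. The 2 probes of H2-Ob, designed against the same transcript, gave drops of unequal size. Its second probe fell by 3.04 ± 0.07 in WT, from 4.81, 4.72 and 4.84 to 1.62, 1.74 and 1.89 (adjusted p = 3.74e-17, every probe tested on its own). In Irf5 KO the pair of probes gave -1.20 and -2.63, in Lyn KO -1.23 and -2.97, and in DKO -0.71 and -2.19, so the direction was shared in every genotype and the size was not. Values of H2-Ob below are those of the probe with the higher mean over all arrays.

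Over the 10 genes, 7 were called lower and 0 higher in WT, where 68.4% of all features were called one way or the other (36.7% lower), so the share of called genes is near the background. Their median was -0.98, against -0.02 over all features. The other genotypes showed the same 5 editor and inhibitor genes lower: 6 genes were lower and 0 higher in Irf5 KO (66.8% of all features called, 35.3% lower). In Lyn KO 6 were lower and 1 higher (68.8% of all features called, 36.3% lower and 32.5% higher), and in DKO 5 were lower and 2 higher (70.4% called, 36.1% lower and 34.3% higher). In the order Irf5 KO, Lyn KO, DKO, the H2-DMa drop was -2.49, -2.82 and -1.95 (SE 0.07 in each), and that of H2-Oa was -2.04, -2.42 and -1.63 (SE 0.07). H2-DMb1 gave -1.87, -2.30 and -1.35 (SE 0.06), and H2-DMb2 gave -1.02, -1.81 and -0.81 (SE 0.11). For each of these genes the drop in DKO was the smallest of the 4 genotypes. Markers of other cells moved too: of 10 type 1 conventional dendritic cell genes, 8 were lower and 2 higher with CpG-B in WT, and their summed level was 321 to 374 unstimulated and 152 to 160.5 stimulated. Of 8 type 2 genes, 6 were lower and 2 higher, with sums of 163 to 173 unstimulated and 140 to 145 stimulated. The 8 macrophage genes went from 98.2 to 103 down to 29 to 31 (3 called lower, 2 higher), and the 9 neutrophil genes from 109 to 136 down to 69.6 to 76.3 (7 lower, 0 higher). The 12 plasmacytoid dendritic cell genes went the other way, from 553 to 677 up to 866 to 947 (7 higher, 3 lower). Each sum adds levels on a linear scale, so the brightest probes weigh most in it, and it does not count cells. The part of these cell types in the class II drop was not tested.

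**Figure D2:**
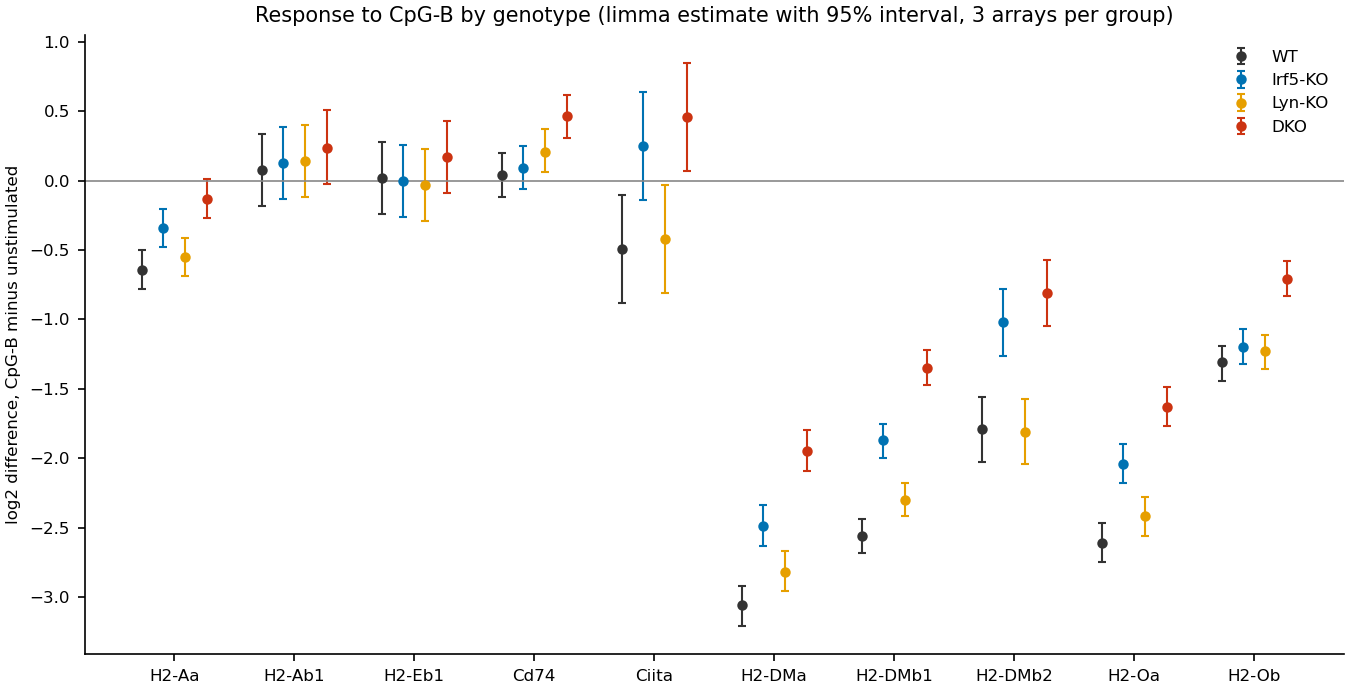
Difference between CpG-B and unstimulated arrays (vertical axis, log2) for each gene in WT, Irf5 KO, Lyn KO and DKO cells, as the limma estimate with its 95% interval over 3 arrays a group. By the 1 probe plotted for each gene, H2-DMa is lowest, from -3.06 in WT to -1.95 in DKO (the second H2-Ob probe, not plotted, fell further in Irf5 KO, Lyn KO and DKO), and the intervals of H2-Ab1 and H2-Eb1 include 0 in every genotype.

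Of the presenting chains, H2-Aa fell in 3 genotypes, and no change of H2-Ab1 or H2-Eb1 was called. H2-Aa, the alpha chain of I-A, was 8.16, 8.12 and 8.07 in unstimulated WT and 7.53, 7.53 and 7.38 with CpG-B. It was lower by -0.64 ± 0.07, a 1.56-fold difference (limma, adjusted p = 5.89e-08), with no overlap (as for 70.7% of all features). It also fell in Irf5 KO (-0.34 ± 0.07, adjusted p = 0.000144) and Lyn KO (-0.55 ± 0.07, adjusted p = 4.27e-07). In DKO it was -0.13 ± 0.07 and not called (adjusted p = 0.0841, 95% interval -0.27 to 0.01), although the groups did not overlap (as for 74.3% of all features). With the slide as a block it was called (-0.13, adjusted p = 0.0134; 0.0134 to 0.345 over its alternatives). H2-Ab1, the beta chain of I-A, was 9.23, 8.71 and 9.08 unstimulated and 9.06, 9.04 and 9.16 with CpG-B in WT, a difference of 0.08 ± 0.13 (95% interval -0.18 to 0.34). H2-Eb1, the beta chain of I-E, whose alpha chain C57BL/6 mice do not make, was 9.87, 9.42 and 9.80 against 9.72, 9.64 and 9.78, a difference of 0.02 ± 0.12 (95% interval -0.24 to 0.28). The groups of H2-Ab1 and H2-Eb1 overlapped in every genotype, and the estimates ran from 0.08 to 0.24 and from -0.03 to 0.17, none of them called. Without DKO unstimulated replicate 2, H2-Ab1 was called higher in DKO (0.37, adjusted p = 0.0164), as it was after normexp correction with quantile normalisation (0.15, adjusted p = 0.0361), and after quantile normalisation H2-Eb1 was called lower in Lyn KO (-0.18, adjusted p = 0.00372; 0.00372 to 0.979 over its alternatives).

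The signals of H2-Ab1, H2-Eb1 and Cd74 hardly moved before scaling, which limits what can be read from them. Over all 24 arrays, the unscaled signal of H2-Ab1 ran from 169080 to 214081, a 1.27-fold range, that of H2-Eb1 from 240828 to 368495 (1.53-fold) and that of Cd74 from 183869 to 273034 (1.48-fold). The percentile used for scaling varied 1.87-fold over the same arrays. The scaled level of these genes ran against that percentile. Within groups, r was -0.97 for H2-Ab1, -0.92 for H2-Eb1 and -0.81 for Cd74 over 24 arrays. For H2-Aa and H2-DMa it was 0.19 and 0.36 (a description, since both values of each pair come from the same array). The percentile is subtracted to give the scaled level, so a nearly constant signal gives a negative r by construction. Unscaled, r with the percentile over the 24 arrays was 0.84 for H2-Ab1, 0.8 for H2-Eb1, 0.71 for Cd74 and 0.83 for H2-Aa. On every array these 3 probes were brighter than 99.79%, 99.97% and 99.85% of all probes, and none was marked saturated: the brightest spots lay below the scanner's saturation value. Whether the 3 probes still follow RNA amount at such signals was not tested.

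**Figure D3:**
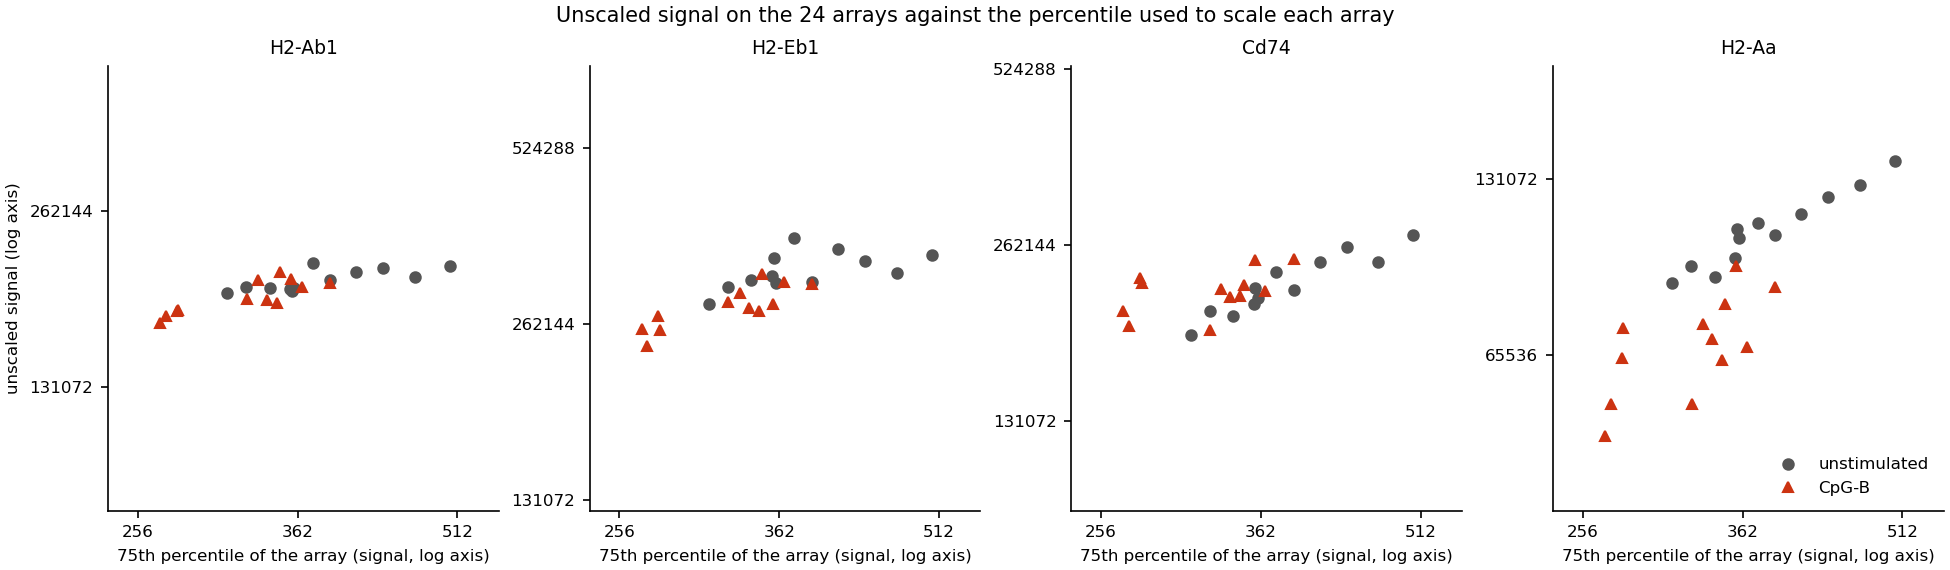
Unscaled signal of H2-Ab1, H2-Eb1, Cd74 and H2-Aa on the 24 arrays (vertical axis, signal, log axis) against the array's 75th percentile (horizontal axis, log axis), with circles for unstimulated and triangles for CpG-B arrays. H2-Ab1 stays between 169080 and 214081, while H2-Aa spans 47613 to 140417.

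Cd74, which encodes the invariant chain, was the one gene of the 10 called higher after CpG-B in 2 genotypes. In DKO it went from 9.04, 9.21 and 9.15 to 9.44, 9.66 and 9.69, a 1.38-fold difference of 0.47 ± 0.07 (limma, adjusted p = 1.6e-05), and the groups did not overlap (as for 74.3% of all features). In Lyn KO it was higher by 0.21 ± 0.07 (adjusted p = 0.0169). That call was lost without Lyn KO unstimulated replicate 3 (0.19, adjusted p = 0.0554) or Lyn KO CpG-B replicate 3 (0.15, adjusted p = 0.0999), after normexp correction with quantile normalisation (0.17, adjusted p = 0.0632) and with only these groups in the fit (adjusted p = 0.0613). In WT and Irf5 KO the differences were 0.04 and 0.09 (SE 0.07, neither called). Unscaled, the DKO signals were 245844, 183869 and 220151 unstimulated and 247354, 226366 and 230407 with CpG-B, so the groups overlapped before scaling.

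Ciita, the transactivator of the family, had the widest error of the 10 genes, an SE of 0.18 for each response against 0.06 to 0.13 for the others. In WT it was 2.03, 1.88 and 1.91 unstimulated and 1.24, 1.03 and 2.09 with CpG-B. Replicate 3 with CpG-B lay above all the unstimulated WT arrays and the other 2 lay below them. The fitted difference was -0.49 ± 0.18 (limma, adjusted p = 0.0257). Without that array it was -0.81 (adjusted p = 1.59e-05), and the call was lost without WT unstimulated replicate 1 (-0.44, adjusted p = 0.0733) or without CpG-B replicate 1 (-0.38, adjusted p = 0.111) or 2 (-0.28, adjusted p = 0.189). It was also lost with no filter on dim probes (adjusted p = 0.0527) and with only these groups in the fit (adjusted p = 0.165). In Lyn KO Ciita was 1.78, 1.93 and 1.71 unstimulated and 1.53, 1.29 and 1.34 with CpG-B. The difference was -0.42 ± 0.18 and not called (limma, adjusted p = 0.0519), although the groups did not overlap (as for 72.6% of all features). Without CpG-B replicate 1 it was called (-0.49, adjusted p = 0.048), as it was under 4 of the 9 alternative settings (adjusted p 0.00863 to 0.145 over all its alternatives). In DKO it moved the other way, from 1.69, 1.83 and 1.86 to 2.24, 2.14 and 2.38, with no overlap (as for 74.3% of all features). That is 0.46 ± 0.18 (adjusted p = 0.0335), a call that was lost without unstimulated replicate 1 (0.41, adjusted p = 0.0967) or 2 (0.48, adjusted p = 0.0546) and without CpG-B replicate 1 (0.47, adjusted p = 0.062) or 3 (0.39, adjusted p = 0.105), and with no filter on dim probes (adjusted p = 0.0678). In Irf5 KO it was 1.82, 1.68 and 1.84 against 1.88, 2.33 and 1.88, a difference of 0.25 ± 0.18 that was not called (adjusted p = 0.242). The groups did not overlap, as for 73.3% of all features.

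After CpG-B, the editor and inhibitor genes stood higher in Irf5 KO than in WT, and the mean of each was highest in DKO. Each of these comparisons uses the same 3 WT arrays. With CpG-B, H2-DMa was 3.00, 2.83 and 2.77 in WT, 3.31, 3.17 and 3.11 in Lyn KO, 3.59, 3.35 and 3.55 in Irf5 KO, and 4.08, 4.10 and 4.07 in DKO. No 2 of these groups overlapped. Over all features, 38% did not overlap between Irf5 KO and WT, 39.3% between Lyn KO and WT and 52.9% between DKO and WT. For DKO it was 45.3% against Irf5 KO and 43.1% against Lyn KO. H2-DMb1 gave the same order, with 4.82, 4.83 and 4.65 in WT, 5.07, 5.03 and 5.17 in Lyn KO, 5.45, 5.52 and 5.46 in Irf5 KO, and 5.96, 6.04 and 6.12 in DKO, again with no overlap. For H2-Oa, H2-Ob and H2-DMb2, WT and Lyn KO overlapped at the bottom, Irf5 KO lay above both, and DKO lay above Irf5 KO for H2-Oa and H2-Ob but overlapped it for H2-DMb2.

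In Irf5 KO against WT with CpG-B, 7 of the 10 genes were called higher and 0 lower, where 25.3% of all features were called (13.8% higher). H2-DMb2 was higher by 0.80 ± 0.11 (limma, adjusted p = 3e-05), H2-DMb1 by 0.71 ± 0.06 (4.29e-08), H2-DMa by 0.63 ± 0.07 (1.57e-06) and H2-Oa by 0.54 ± 0.07 (7.72e-06), all values in log2. H2-Aa was higher by 0.33 ± 0.07 and H2-Ob by 0.24 ± 0.06; the H2-Ob call was lost after normexp correction with quantile normalisation (0.21, adjusted p = 0.0642) and with only these groups in the fit (adjusted p = 0.063), over a range of 0.000451 to 0.0642. The median of the 10 was 0.43, against 0.01 over all features. The seventh, Ciita, was higher by 0.58 ± 0.18 (adjusted p = 0.0271) with groups that overlapped, and its call was lost without WT CpG-B replicate 1 (0.47, adjusted p = 0.119) or 2 (0.37, adjusted p = 0.17) and without Irf5 KO CpG-B replicate 2 (0.43, adjusted p = 0.143), with no filter on dim probes (adjusted p = 0.0628) and with only these groups in the fit (adjusted p = 0.239). Without WT CpG-B replicate 3 it was 0.90, adjusted p = 3.67e-05. Groups did not overlap for 7 of the 10, against 38% of all features.

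Fewer of the genes were called in Lyn KO. In Lyn KO against WT with CpG-B, 3 of the 10 genes were called higher and 0 lower, where 24.6% of all features were called (12.8% higher): H2-DMa (0.33 ± 0.07, limma, adjusted p = 0.00165), H2-DMb1 (0.32 ± 0.06, adjusted p = 0.000412) and Cd74 (0.21 ± 0.07, adjusted p = 0.046). The H2-DMa call was lost when only the arrays of these 2 groups entered the fit (adjusted p = 0.0575). The Cd74 call was lost without any 1 of 5 of the 6 arrays of the comparison (all but Lyn KO CpG-B replicate 1; 0.15 to 0.28 over the 6 fits) and under 6 of the 9 alternative settings, among them quantile normalisation, where it fell to 0.07. H2-DMb2 and H2-Ob differed by 0 ± 0.11 and 0 ± 0.06, with 95% intervals of -0.24 to 0.24 and -0.13 to 0.12. The 10 genes had a median of 0.13, against 0.04 over all features.

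The double knockout stood farthest from WT. With CpG-B, 8 of the 10 genes were called higher in DKO and 0 lower, where 44.5% of all features were called (24.4% higher), and 8 did not overlap (52.9% of all features). H2-DMb1 was higher by 1.27 ± 0.06, 2.41-fold (limma, adjusted p = 5.01e-12), H2-DMa by 1.22 ± 0.07, 2.32-fold (8.35e-11), H2-DMb2 by 0.91 ± 0.11 (2.58e-06) and H2-Oa by 0.88 ± 0.07 (4.6e-09). Ciita was higher by 0.80 ± 0.18 (adjusted p = 0.00147), H2-Ob by 0.53 ± 0.06, H2-Aa by 0.49 ± 0.07 and Cd74 by 0.37 ± 0.07. The unscaled signal of Cd74 was nearly constant. Its estimate ran from 0.23 to 0.37 over the main fit and the alternatives besides leaving out arrays. H2-Ab1 and H2-Eb1 differed by 0.16 ± 0.13 and 0.09 ± 0.12 and were not called. The Ciita estimate was 0.59 without WT CpG-B replicate 2 and 1.12 without replicate 3, called in both, and was not called with only these groups in the fit (adjusted p = 0.0626; 1.14e-06 to 0.0626 over its alternatives).

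DKO cells also stood above each single knockout. Against Irf5 KO with CpG-B, 5 of the 10 genes were higher and 0 lower (33% of all features called, 18.3% higher): H2-DMa by 0.59 ± 0.07 (limma, adjusted p = 2.45e-06), H2-DMb1 by 0.56 ± 0.06 (5.4e-07), H2-Oa by 0.34 ± 0.07, H2-Ob by 0.30 ± 0.06 and Cd74 by 0.26 ± 0.07 (adjusted p = 0.0115). The Cd74 call was lost without DKO CpG-B replicate 2 (0.22, adjusted p = 0.0521) or 3 (0.21, adjusted p = 0.063). It was also lost after quantile normalisation (0.15, adjusted p = 0.0792), after normexp correction with quantile normalisation (0.18, adjusted p = 0.0938) and with only these groups in the fit (adjusted p = 0.0788). H2-Aa, at 0.16 ± 0.07 (adjusted p = 0.0665), was not called, but was without DKO CpG-B replicate 3 (0.22, adjusted p = 0.0247) and with the slide as a block (0.16, adjusted p = 0.00777; 0.00777 to 0.442 over its alternatives). H2-DMb2 differed by 0.11 ± 0.11 (95% interval -0.13 to 0.34). Against Lyn KO, 7 were higher and 0 lower (31.2% of all features called, 17.2% higher), led by H2-DMb1 (0.95 ± 0.06), H2-DMb2 (0.90 ± 0.11) and H2-DMa (0.89 ± 0.07). Ciita was higher there by 0.87 ± 0.18 (adjusted p = 0.00121), from 1.53, 1.29 and 1.34 in Lyn KO to 2.24, 2.14 and 2.38 in DKO. Cd74, at 0.16 ± 0.07, was not called, but was without DKO CpG-B replicate 1 (0.24, adjusted p = 0.0199) or Lyn KO CpG-B replicate 3 (0.22, adjusted p = 0.0448).

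**Figure D4:**
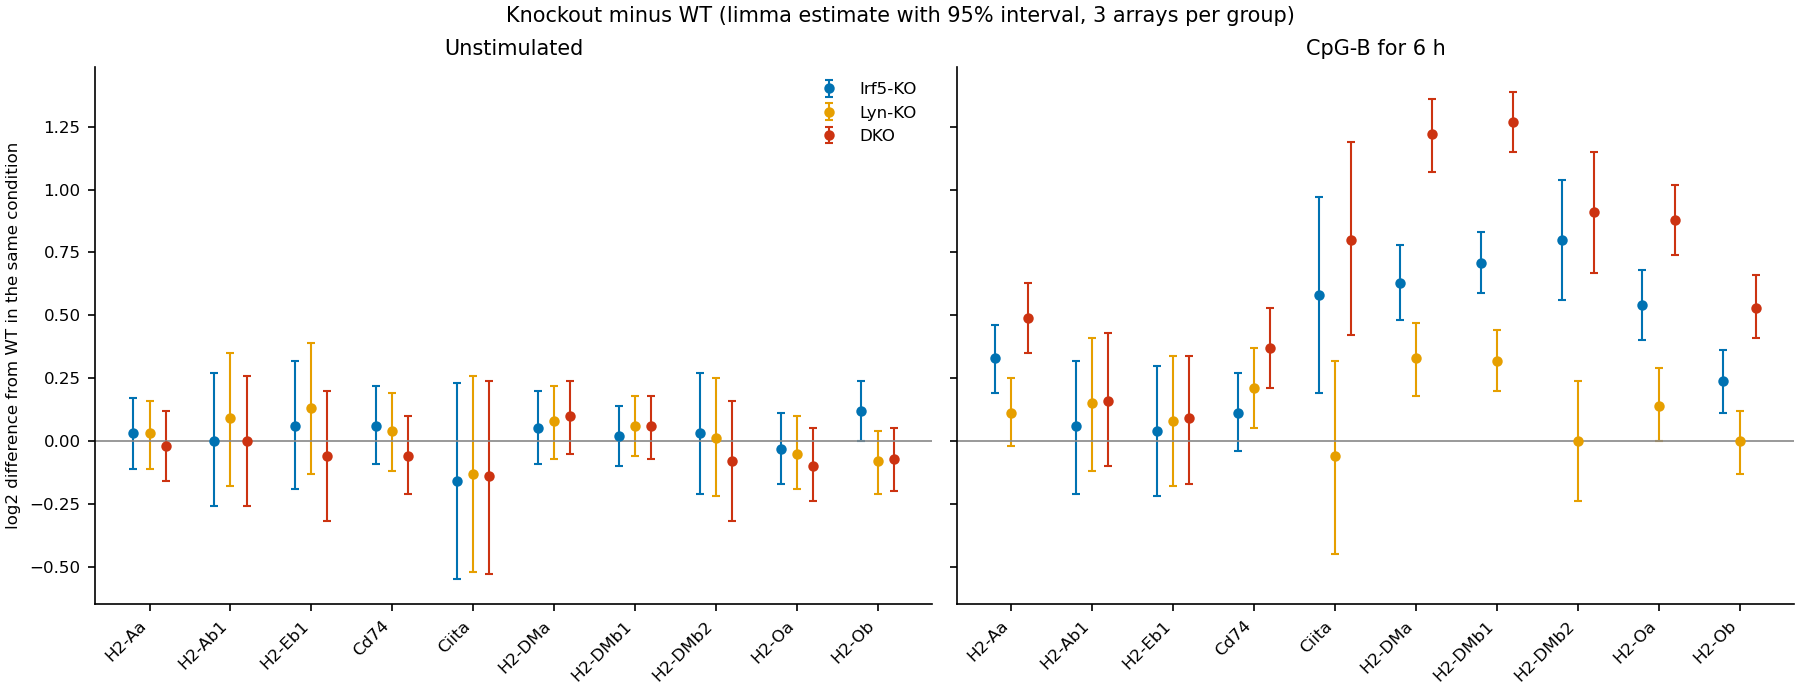
Difference of each knockout from WT (vertical axis, log2; limma estimate with its 95% interval over 3 arrays a group) without stimulation (left) and with CpG-B (right). On the left no gene is called; on the right DKO reaches 1.27 for H2-DMb1 and 1.22 for H2-DMa.

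The response itself was tested between genotypes as the CpG-B difference in a knockout minus that in WT. In Irf5 KO this was positive, a smaller drop, for 5 of the 10 genes (12.2% of all features called, 6.9% higher): H2-DMb2 (0.77 ± 0.16), H2-DMb1 (0.69 ± 0.08), H2-DMa (0.58 ± 0.10), H2-Oa (0.57 ± 0.10) and H2-Aa (0.30 ± 0.09, limma, adjusted p = 0.0443). The H2-Aa call was lost without any 1 of 9 of the 12 arrays involved (all but WT CpG-B replicates 1 and 2 and Irf5 KO unstimulated replicate 1; 0.24 to 0.32 over the 12 fits) and under 4 of the 9 alternative settings. Ciita gave 0.74 ± 0.26 and was not called (adjusted p = 0.0771), but was without WT CpG-B replicate 3 (1.06, adjusted p = 0.000315). H2-Ob gave 0.12 ± 0.08 by its main probe and 0.42 ± 0.10 by the second (adjusted p = 0.0106).

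In DKO, 8 of the 10 responses were shifted upward and 0 downward (30% of all features called, 16.2% higher). H2-DMb1 gave 1.22 ± 0.08 (limma, adjusted p = 3.33e-09), H2-DMa 1.12 ± 0.10, H2-DMb2 0.98 ± 0.16, H2-Oa 0.98 ± 0.10, Ciita 0.95 ± 0.26, H2-Ob 0.61 ± 0.08, H2-Aa 0.51 ± 0.09 and Cd74 0.43 ± 0.10. For Cd74, with its nearly constant signal, this ran from 0.25 to 0.43 over the main fit and the alternatives besides leaving out arrays. The Ciita value was 1.26 without WT CpG-B replicate 3 and 0.73 without replicate 2, called in both. In Lyn KO none of the 10 was called (10.7% of all features; 2 at an unadjusted p under 0.05), and the values ran from -0.05 to 0.26. The highest, H2-DMb1 at 0.26 ± 0.08, missed the threshold narrowly (adjusted p = 0.0515). It was called under 5 of the 9 alternative settings, and without WT unstimulated replicate 1 (0.30, adjusted p = 0.0349), WT CpG-B replicate 2 (0.29, adjusted p = 0.0409) or Lyn KO CpG-B replicate 2 (0.29, adjusted p = 0.0481); over all its alternatives the adjusted p ran from 0.014 to 0.173. Without WT CpG-B replicate 1 the 1 gene called was H2-DMa (0.31, adjusted p = 0.0498). Whether the effect of Lyn with CpG-B differed without Irf5 from that with Irf5 was tested on its own: 0 of the 10 genes were called (3.52% of all features; 3 at an unadjusted p under 0.05), with H2-Ob at 0.30 ± 0.08 (adjusted p = 0.0537), H2-DMa at 0.26 ± 0.10 and H2-DMb1 at 0.24 ± 0.08. One gene was called without Lyn KO CpG-B replicate 2 (H2-Ob, 0.35, adjusted p = 0.0367), WT CpG-B replicate 3 (H2-DMb1, 0.30, adjusted p = 0.0445) or Irf5 KO CpG-B replicate 3 (H2-Ob, 0.34, adjusted p = 0.0322).

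Differences between 2 members on the same array do not depend on the percentile that scaled the array, though other normalisations can shift them. H2-DMa minus H2-Aa changed with CpG-B by -2.43 in WT, by -2.15 in Irf5 KO, by -2.27 in Lyn KO and by -1.81 in DKO, so the probe of the editor's alpha chain dropped more than that of the presenting alpha chain in every genotype. H2-DMa minus H2-Oa changed by -0.45, -0.45, -0.40 and -0.31 in the same order, and stimulated and unstimulated arrays were apart in each. H2-DMb1 minus H2-Oa moved by 0.05, 0.17, 0.12 and 0.29, and stimulated and unstimulated arrays were apart only in DKO. The responses of the 2 H2-Ob probes differed by more than H2-DMa minus H2-Oa or H2-DMb1 minus H2-Oa changed. Such gaps between probes do not show which RNA fell more. Over the 24 arrays, H2-DMa, H2-DMb1, H2-DMb2, H2-Oa, H2-Ob and H2-Aa correlated with each other at 0.92 to 1.0, and Ciita with those 6 at 0.23 to 0.41 (Pearson's r as a description, since the arrays fall into stimulated and unstimulated groups).

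Another class II gene, H2-Eb2, which is close to H2-Eb1 in sequence and was measured by 1 probe, differed between DKO and WT with CpG-B by more than any of the 10 did. It was 2.26, 2.47 and 2.28 in unstimulated WT and -1.07, -0.77 and -0.80 with CpG-B, a drop of -3.21 ± 0.09 (limma, adjusted p = 5.88e-16). In DKO it went from 2.10, 2.11 and 1.84 to 1.42, 1.50 and 1.33, a drop of -0.60 ± 0.09. The drop was -2.07 in Irf5 KO and -2.45 in Lyn KO. With CpG-B it was higher than in WT by 2.30 ± 0.09 in DKO, 0.96 ± 0.09 in Lyn KO and 0.93 ± 0.09 in Irf5 KO (adjusted p = 1.32e-12, 4.77e-07 and 6.34e-07). Set against the WT response, that of H2-Eb2 differed by 2.61 in DKO, 1.15 in Irf5 KO and 0.76 in Lyn KO (SE 0.13, all called; the Lyn KO call was lost after normexp correction with quantile normalisation). Without stimulation H2-Eb2 was 2.56, 2.56 and 2.49 in Lyn KO and lower in DKO by -0.52 ± 0.09 (adjusted p = 0.0284), with no overlap (as for 12.4% of all features). That call was lost under 7 of its 15 alternatives (-0.56 to -0.43, adjusted p 0.0158 to 0.378), 4 of which leave out 1 array: any Lyn KO unstimulated array or DKO unstimulated replicate 3 (0.0781 to 0.113). H2-Ea and its pseudogene were not tested.

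**Figure D5:**
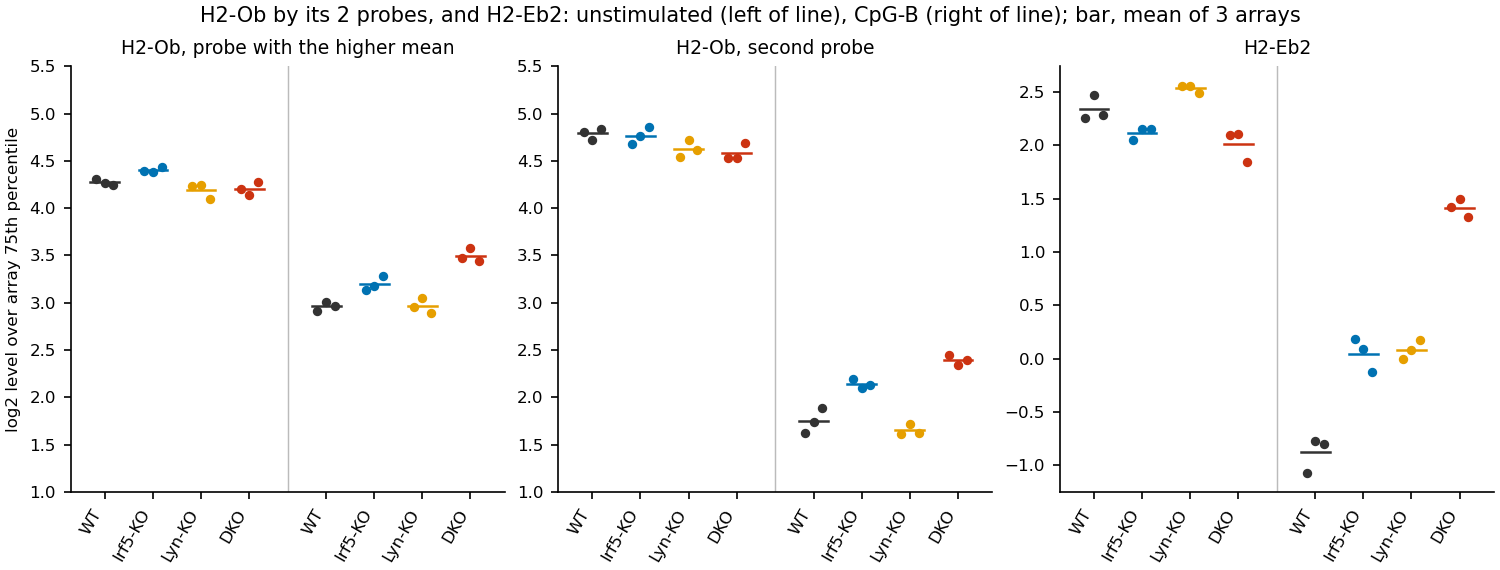
Level on each array (points; vertical axis, log2 of the signal over the array's 75th percentile) of H2-Ob by each of its 2 probes and of H2-Eb2, with the mean of 3 arrays as a bar. The second H2-Ob probe drops further than the first after CpG-B (-3.04 against -1.31 in WT), and among the stimulated groups H2-Eb2 is highest in DKO, at 1.33 to 1.50.

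Of 15 genes of the class II enhanceosome and regulators of Ciita, 9 were higher and 2 lower with CpG-B in WT (median 0.68, against -0.02 over all features); with 68.4% of all features called in that comparison, this share is near the background. Those that hold the complex on DNA moved in both directions: Rfx5 rose by 0.98 ± 0.17 and Rfxank by 0.37 ± 0.08, Rfxap fell by 1.57 ± 0.21, Nfya rose by 0.68 ± 0.12, and Nfyb and Nfyc were at 0.09 and -0.06 and not called (limma). Rfxap was not above background in DKO with CpG-B. Prdm1, which encodes a repressor of Ciita, rose by 1.68 ± 0.10 in WT, by 1.32 in Irf5 KO, by 1.53 in Lyn KO and by 0.93 in DKO. With CpG-B, Prdm1 was lower in DKO than in WT by -0.98 ± 0.10 and in Lyn KO by -0.37 ± 0.10, and at -0.17 ± 0.10 in Irf5 KO it was not called. Spi1, which encodes the myeloid factor PU.1, was higher in DKO than in WT by 0.41 ± 0.13, and Irf8 was lower in Irf5 KO by -1.51 ± 0.09 and higher in Lyn KO by 0.79 ± 0.09. Between DKO and WT with CpG-B, 2 of the 15 were higher and 5 lower, where 44.5% of all features were called.

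Of 14 genes of peptide loading and class II turnover, 6 were higher and 4 lower with CpG-B in WT (median 0.17), again near the 68.4% of all features called. Proteases that cut the invariant chain or antigen were split: Ctss, the main invariant chain protease of dendritic cells, was at -0.02 ± 0.06 in WT and not called, Ctsl fell by 0.68 ± 0.08, Ctsd by 1.07 ± 0.12, and Lgmn rose by 1.34 ± 0.06. Cd83, which shields surface class II from removal, rose by 0.37 ± 0.05 in WT and 1.46 ± 0.05 in DKO, and was higher in DKO than in WT with CpG-B by 1.11 ± 0.05. The ligase gene Marchf1, whose product marks surface class II for removal, was not called in WT (0.41 ± 0.19). Between DKO and WT with CpG-B, 6 of the 14 were higher and 4 lower (44.5% of all features called).

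The MHC class I genes rose. All 9 listed were higher with CpG-B in every genotype, with medians of 1.19 (WT), 1.31 (Irf5 KO), 1.26 (Lyn KO) and 1.23 (DKO). Of all features, 66.8% to 70.4% were called one way or the other. The share called higher was 32.5% in Lyn KO and 34.3% in DKO. The share called lower was 36.7% in WT and 35.3% in Irf5 KO. In WT, Nlrc5, the class I counterpart of Ciita, rose by 3.31 ± 0.17 (limma, adjusted p = 1.46e-12) and B2m, the class I light chain, by 1.19 ± 0.09. With CpG-B, 2 of the 9 were higher in Irf5 KO than in WT (13.8% of all features called higher) and 7 in DKO (24.4%; median 0.32).

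Markers of other cell types were set beside the stimulated groups. The summed level of the 14 B cell genes with CpG-B was 81.9 to 106.8 in WT, 115 to 148 in Irf5 KO, 30.2 to 31.7 in Lyn KO and 21.7 to 23.9 in DKO, with Cd79a not above background in Lyn KO and DKO. Of 10 type 1 conventional dendritic cell genes, 8 were higher and 1 lower in DKO than in WT (median 0.67; 44.5% of all features called, 24.4% higher), although their summed level was 144 to 153 against 152 to 160.5. Of 8 type 2 genes, 5 were higher and 2 lower (median 0.68), with sums of 150 to 163 against 140 to 145. Tlr11 of the type 1 genes was not above background in either group, nor was Gcsam in WT or the type 2 gene Cd209a in DKO. The 12 plasmacytoid dendritic cell genes summed to 866 to 947 in WT and 1183 to 1282 in DKO. The 8 macrophage genes summed to 29 to 31 in WT and 33.6 to 50.4 in DKO, the 9 neutrophil genes to 69.6 to 76.3 and 25.3 to 59.9, and the 4 T cell genes to 9.46 to 11.7 and 15.5 to 16.1. Cd3g was not above background in either group, and Retnlg was not in DKO. The part of cell make-up in the class II differences was not tested.

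Genes whose levels ran most like a member's over the 24 arrays were ranked among 12628 others by Pearson's r. Trps1, Csgalnact2, Dapk1, Ero1b and Plbd1 were nearest to H2-Ob (0.987 to 0.989). Golgb1, Id1, Rab43, Camta2 and Tuba1a were nearest to Ciita (0.783 to 0.808). For the mean of H2-Aa, H2-Ab1 and H2-Eb1, Rpsa, Rpl10, Gm11559, Rpl7 and Krtap4-8 were nearest (0.83 to 0.905), and 3 of these encode ribosomal proteins. H2-Ab1 and H2-Eb1 had nearly constant signals, and their scaled levels ran against the array's percentile (r of -0.95 and -0.76 over 24 arrays). H2-Aa correlated with them at -0.3 and -0.07, so this mean does not follow 1 shared profile. Whether the match with ribosomal genes reflects shared expression was not tested.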

How the data were processed

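Total RNA was hybridised to 24 one-colour Agilent arrays (62976 spots, Cy3), on 3 slides that each hold 1 array of every group, scanned on 1 day. Per the file headers, the authors read them with Agilent Feature Extraction 10.7.3.1, whose processed signal is a background-subtracted intensity on a linear scale, and the array design is annotated on mm9. The deposited series table holds log2 values that differ between arrays as the scaled signals do (95% of differences within 0.00475 over 13388 probes with signals of 200 or more).

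Here, control spots and 4351 outlier spot values were dropped, replicate spots of 1 probe were averaged, and log2 signal minus the array's 75th percentile was taken. Of 55681 probes, 26762 were named through RefSeq accessions and 28919 were not. Probes well above background on every array of at least 1 group were kept (26640) and a gene was represented by its probe with the highest mean, giving 20209 features (15800 detected on all arrays), with 18 missing values. limma 3.58.1 (R 4.3.3) fitted 8 group means; moderated 2-sided tests were adjusted by Benjamini-Hochberg and called at 0.05. The fit was tested on simulated data. The labels do not say that arrays came from separate animals, so p-values measure the spread between these samples.

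The members and gene lists were chosen with earlier results of these data known. Genes named were the members, the listed genes, Irf5 and Lyn, and the 5 genes most like 3 of the members' profiles. Replicate numbers are those of the slides, and the labels do not say that they pair the samples. Not every same-numbered pair correlated over 0.1, and the slide was a block only in an alternative. Same-numbered arrays were still more alike than others, and that block changed some calls, as given below. The number of arrays limits the precision. Alternatives were other normalisations and scalings, filters, the deposited table, a replicate (slide) block, single probes, only the groups compared, and each array left out. The level of another marker gene is not reported here.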

Additional observations from a re-analysis of the deposited data

Results flagged for a closer look

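The CpG-B response differed from that in WT, by a test of the difference itself (limma, Benjamini-Hochberg adjusted), for 5 of the 10 class II genes in Irf5 KO and 8 in DKO; both sets use the same WT arrays. In Irf5 KO the differences were 0.69 for H2-DMb1, 0.57 for H2-Oa, 0.58 for H2-DMa, 0.77 for H2-DMb2 and 0.30 for H2-Aa (log2). The H2-Aa call there was lost without most of the single arrays, among them WT unstimulated replicate 1 (0.27, adjusted p = 0.0941). It was also lost after quantile normalisation (0.25, adjusted p = 0.285). In DKO the differences were 1.22 for H2-DMb1, 0.98 for H2-Oa, 1.12 for H2-DMa, 0.98 for H2-DMb2, 0.51 for H2-Aa, 0.61 for H2-Ob, 0.43 for Cd74 and 0.95 for Ciita. H2-Eb2 differed by 2.61 in DKO, 1.15 in Irf5 KO and 0.76 in Lyn KO; the Lyn KO value was 0.37 and not called after normexp correction and quantile normalisation (adjusted p = 0.123; 0.000487 to 0.123 over its alternatives).

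Ciita was lower with CpG-B on every slide in Lyn KO (-0.42) and higher on every slide in Irf5 KO (0.25) and in DKO (0.46). The difference between these genotypes' responses was not tested. By limma, neither the Lyn KO nor the Irf5 KO difference was called. The DKO call was lost without some single arrays, among them CpG-B replicate 3 (0.39, adjusted p = 0.105). In Irf5 KO, Ciita went from 1.68 to 2.33 on slide 2. It went from 1.82 to 1.88 on slide 1 and from 1.84 to 1.88 on slide 3. The labels do not say that arrays of 1 slide hold paired samples.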

How the results depend on the processing

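Of 180 results on the 10 genes, 70 were called, and 60 of these kept their call and direction under all alternatives run; no result reversed. Of the 18 counts of called genes, 15 stayed within 1.5 times under the 9 alternatives besides leaving out arrays. The count for the response in Lyn KO minus WT went from 0 to 1 (H2-DMb1) with quantile normalisation, normexp correction with quantile normalisation, only probes detected on every array, the deposited series table and the replicate block. The count for the effect of Lyn without minus with Irf5 went from 0 to 1 with only probes detected on every array (H2-Ob, 0.30, adjusted p = 0.044), and that for stimulated Lyn KO against WT went from 3 to 1 with only the groups compared (fewer arrays). Replicate numbers are those of the slides. Of the same-numbered pairs of arrays, 25 of 84 correlated over 0.1 (median 0.05), against 2 of 168 others (median -0.03). Arrays of 1 slide were thus more alike than others, though not in every pair. The replicate block also called H2-Aa in the DKO response (-0.13, limma, adjusted p = 0.0134) and in DKO against Irf5 KO with CpG-B (0.16, adjusted p = 0.00777). The cause of these shifts was not tested. Leaving out 1 array gave 6 to 7 called genes for the response in WT, 6 in Irf5 KO, 6 to 8 in Lyn KO and 6 to 7 in DKO. With CpG-B it gave 6 to 7 for Irf5 KO against WT, 2 to 3 for Lyn KO against WT, 8 for DKO against WT, 4 to 5 for DKO against Irf5 KO and 7 to 8 for DKO against Lyn KO. For response differences from WT it gave 4 to 5 in Irf5 KO, 0 to 1 in Lyn KO and 8 in DKO, and 0 to 1 for the effect of Lyn. Unstimulated counts stayed at 0. The calls lost most often were those of Cd74 in Lyn KO against WT and of H2-Aa in the Irf5 KO response difference. With 3 arrays a group, intervals of about the size of the Ciita differences remain, and the near-constant signals of H2-Ab1, H2-Eb1 and Cd74 limit what their levels can show.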
